A study of Mus musculus with 24 samples.

Results

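The genes described here build the neuromuscular junction, the synapse at which a motor nerve drives a skeletal muscle fibre, and they were followed in RNA of the mouse choroid. The 10 genes Dok7, Musk, Lrp4, Rapsn, Colq, Chrna1, Chrnb1, Chrnd, Chrne and Chrng were taken by symbol from the 56065 genes of the deposited table. The set was chosen by the values of that contrast in which Dok7 was lower, namely laser against no laser in Ceacam1-/- mice, which is therefore described below without a test. The study followed 24 libraries: 4 of wild type and 4 of Ceacam1-/- choroid without laser, and 9 of wild type and 7 of Ceacam1-/- choroid after laser. Ceacam1-/- mice lacked the first exons of Ceacam1 on both alleles. Wild type mice were their littermates from heterozygous matings. All were young adults of both sexes on a C57BL/6J background and were negative for rd8. Laser spots were set in each eye with a frequency-doubled Nd:YAG laser under ketamine and xylazine to induce choroidal neovascularization. The libraries without laser are given as 4 mice of each genotype. For the laser libraries the time between laser and sampling is not given in the sources used here, nor whether a library is 1 mouse, so part of the spread behind the p-values may be technical. Libraries that share a mouse would not be independent, and the p-values of the laser comparisons would then be too small.

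At the junction the nerve releases agrin, which binds the muscle receptor Lrp4 and thereby activates the kinase Musk. Dok7 is the adaptor inside the muscle fibre that Musk needs for full activity, and Rapsn is the scaffold that packs acetylcholine receptors under the nerve ending. The receptor is a pentamer of subunits encoded by Chrna1, Chrnb1 and Chrnd with either Chrng, in fetal and denervated muscle, or Chrne, in most adult fibres, and Colq anchors acetylcholinesterase in the synaptic cleft. The choroid itself is a vascular and pigmented layer with no skeletal muscle. The extraocular muscles are attached to the outside of the same eye and keep some developmental myosin and some Chrng in adult life. In its section on cell sorting, the paper names the retinal pigment epithelium, choroid and sclera together as choroid from there on. Its RNA extraction is described after that section, so the samples called choroid here may also hold sclera and pigment epithelium. The part of these tissues in the values was not tested.

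Ceacam1, the deleted gene, had 2956 ± 2153 normalized counts in wild type without laser (SD, n = 4) and from 774 to 8367 (median 996) in 9 libraries with laser, where library 19 alone was that high, against 647 ± 352 (SD, n = 4) and 373 ± 272 (SD, n = 7) in Ceacam1-/-. Its ranges overlapped between the genotypes, with a wild type minimum of 958 without laser and a Ceacam1-/- maximum of 1171 without and 905 with laser, and reads of the gene remained in every Ceacam1-/- library. These values are per gene, and only the first exons were deleted. Which exons the remaining reads came from was not tested. The paper reports successful deletion from separate measurements of Ceacam1 mRNA in retina and choroid and from staining of the protein.

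Skeletal muscle RNA was present in every choroid library and differed widely between libraries. Its part in the values of the genes below was not tested. None of 24 sarcomere and excitation-contraction genes was at 0 throughout a group, and the calcium pump gene Atp2a1 had the highest mean of them over the 24 libraries, with the actin gene Acta1 higher in both laser groups. Their summed values made up 3.85% ± 1.23 (SD, n = 4) of a wild type library without laser and 1.94% ± 0.65 (SD, n = 9) of one with laser. In Ceacam1-/- the share was 3.92% ± 2.55 (SD, n = 4) without and 0.94% ± 0.54 (SD, n = 7) with laser. Libraries 23 (0.487%) and 25 (6.30%), both Ceacam1-/- without laser, and 14 (0.136%), Ceacam1-/- with laser, stood farthest apart. All 6 endothelial, 6 retinal pigment epithelium and 4 melanocyte markers of the choroid and its border were detected in each group. All 7 photoreceptor markers were detected as well. Their mean log2 value was 15.3 and 15.4 in libraries 21 and 23 without laser, and 15.4, 16.2 and 16.2 in Ceacam1-/- laser libraries 15, 14 and 18, against 9.32 to 13.4 in the other 4 libraries of that group.

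Regulatory sequence is shown for 4 of the genes, chosen by their correlations. Chrng and Chrna1 went with the myogenic factor Myog across libraries (r = 0.86 each, below), and Dok7 (r = -0.02) and Chrne (r = 0.32) are set beside them. Within the 9 wild type laser libraries, r with Myog was 0.67 for Chrne and 0.44 for Dok7, against 0.87 for Chrng and 0.93 for Chrna1. RefSeq promoters on GRCm38.p6 matched 6 of the 10 genes, and the 250 bases before the first listed start are printed 5′ to 3′ on the strand of the gene. The windows are chr1:87205561-87205810 (plus strand) for Chrng, chr2:73580339-73580588 (minus strand) for Chrna1, chr11:70619195-70619444 (minus strand) for Chrne and chr5:35056516-35056765 (plus strand) for Dok7. Capitals mark each CANNTG, the E-box letters that myogenic factors such as Myog bind, and in Chrne also CCGGAA, the core of sites for ETS factors, which are known to act on synaptic genes.
Chrng: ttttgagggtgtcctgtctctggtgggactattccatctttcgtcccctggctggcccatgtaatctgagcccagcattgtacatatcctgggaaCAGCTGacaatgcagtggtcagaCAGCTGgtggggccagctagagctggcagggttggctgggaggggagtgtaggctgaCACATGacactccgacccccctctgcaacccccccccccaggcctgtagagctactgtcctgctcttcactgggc
Chrna1: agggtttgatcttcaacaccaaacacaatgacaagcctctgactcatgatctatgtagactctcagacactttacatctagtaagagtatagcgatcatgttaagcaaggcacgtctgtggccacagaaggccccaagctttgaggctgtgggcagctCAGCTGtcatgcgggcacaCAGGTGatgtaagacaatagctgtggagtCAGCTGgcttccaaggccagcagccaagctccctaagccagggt
Chrne: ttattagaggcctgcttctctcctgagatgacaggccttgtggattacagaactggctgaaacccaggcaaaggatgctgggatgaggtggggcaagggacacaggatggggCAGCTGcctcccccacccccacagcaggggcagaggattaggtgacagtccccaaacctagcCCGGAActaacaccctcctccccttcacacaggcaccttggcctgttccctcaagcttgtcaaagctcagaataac
Dok7: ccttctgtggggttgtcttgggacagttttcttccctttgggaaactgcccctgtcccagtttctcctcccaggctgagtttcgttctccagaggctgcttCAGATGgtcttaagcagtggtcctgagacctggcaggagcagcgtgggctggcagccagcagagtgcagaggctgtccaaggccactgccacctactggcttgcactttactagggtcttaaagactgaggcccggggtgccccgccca
The Chrng and Chrna1 windows each held 3 CANNTG, of which 2 in each read CAGCTG. The Chrne window held 1, also CAGCTG, and in addition 1 CCGGAA, whereas Dok7 held 1 CANNTG that was not CAGCTG. A further window listed for Dok7, chr5:35056822-35057071, is not printed and held 0 CANNTG. Among the other matched genes, Musk held 3 CANNTG with 1 of them CAGCTG, and Chrnb1 held 3 and none of that form. Over the 24 libraries, r with Myog was 0.53 for Musk and 0.57 for Chrnb1. Both E-box motifs read the same on both strands, and the stricter motif is also counted under the wider one. Of 32851 promoter windows of this length, 66.2% held a CANNTG, 13% a CAGCTG and 12% a CCGGAA on either strand. The matches are letters in a window, not measured sites.

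All 10 genes were detected, and over the 24 libraries each averaged 10 normalized counts or more. Per kilobase of the canonical transcript, the mean over all libraries was highest for Rapsn (412 normalized counts per kb), followed by Chrnb1 (236) and Chrna1 (219). Dok7 (91.6) and Chrng (90.8) came next, then Chrnd (32.2), Lrp4 (31.2), Colq (27.9), Musk (16.8) and Chrne (6.21). This order pools the groups and did not hold in each. Chrna1 averaged 381 per kb and Chrnb1 265 in wild type with laser, but 58.5 and 124 in Ceacam1-/- with laser. The group means of Chrng ran from 3.95 to 222 per kb. In wild type choroid without laser, Rapsn stood at 515 ± 143 per kb and Chrnb1 at 311 ± 166 per kb, and Dok7 stood at 131 ± 13.4 per kb (SD, n = 4 each). The difference between Rapsn and Chrnb1 there was smaller than the sum of their SDs. Chrng, at 3.95 ± 3.76 per kb, and Chrne, at 9.63 ± 4.70 per kb, were the lowest there and also lay within their spread.

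**Figure D1:**
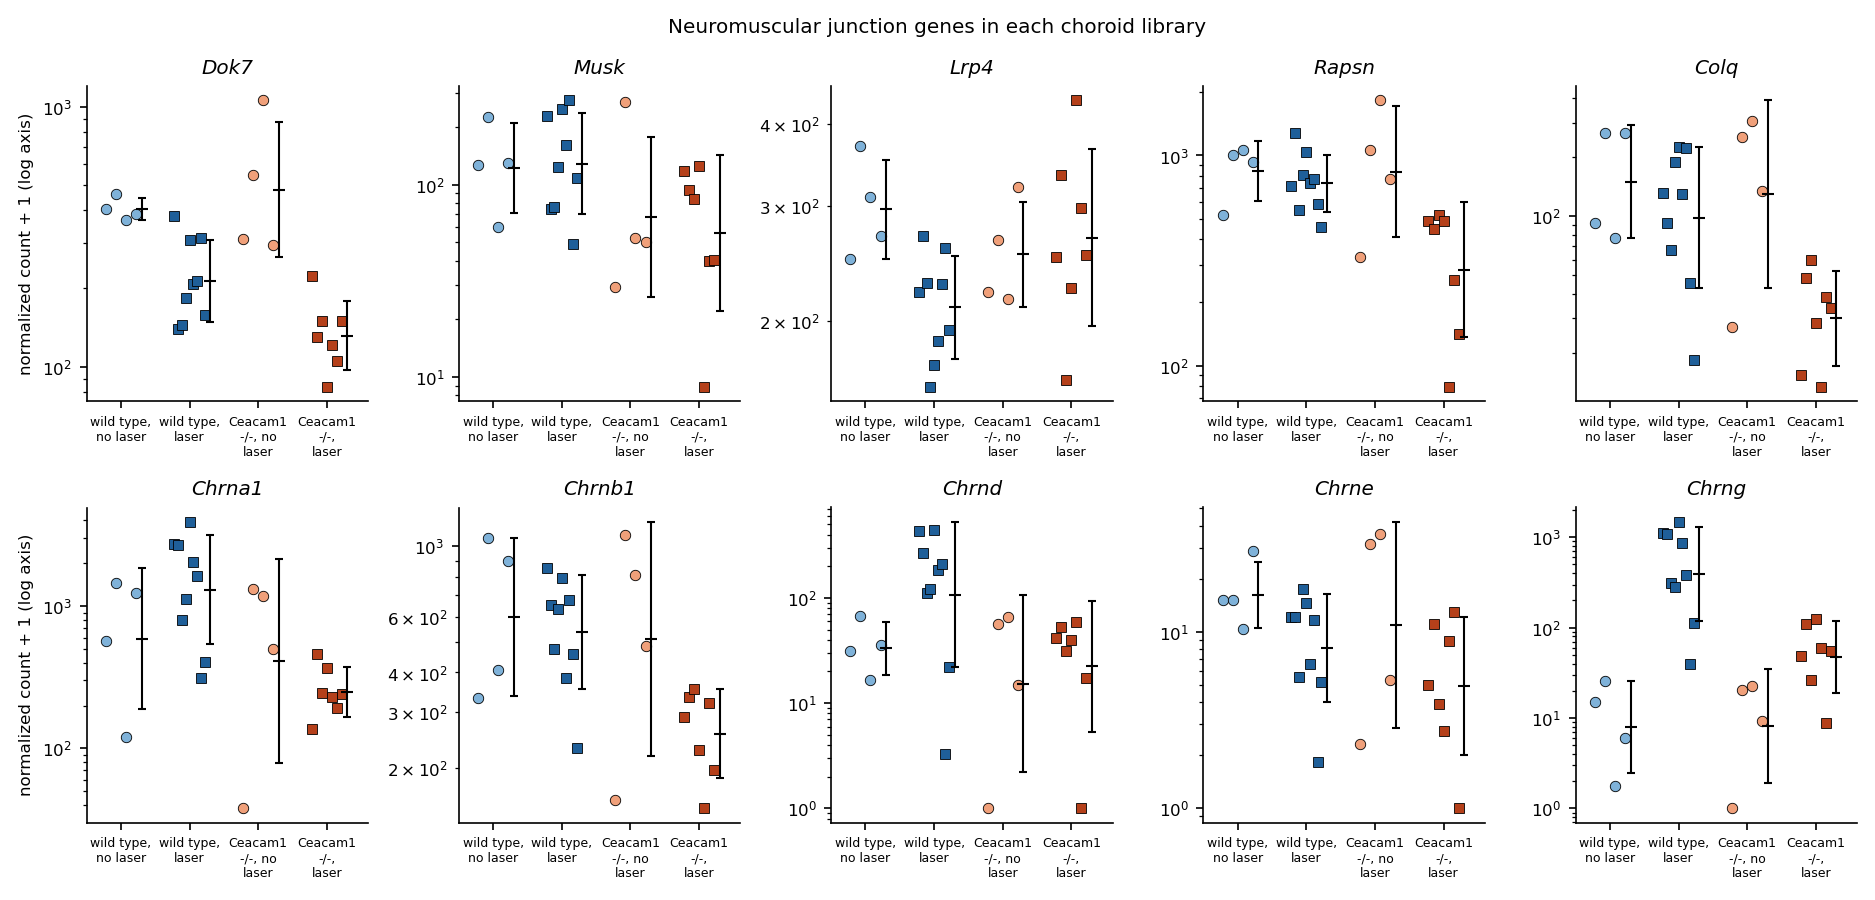
Normalized counts plus 1 of the 10 genes in each of 24 choroid libraries, on a log axis, by genotype and laser. Circles are libraries without and squares libraries with laser, and bars give the mean ± SD of the log2 values. Chrng of all 9 wild type laser libraries lies above all 4 wild type libraries without laser, and Dok7 is at 222 or less in all 7 Ceacam1-/- laser libraries.

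The first question was whether laser changes the junction genes in wild type choroid. The rule behind the set did not use the values of this contrast, although earlier results of all 24 libraries were known when the set and the lists were chosen. Chrng, the fetal receptor subunit, rose, by a log2 fold change of 5.62, and no other gene of the set passed the test. Chrnd and Chrna1, the other receptor subunits with higher means after laser, spread widely between libraries and did not pass. Dok7 and Lrp4 had lower means, and Musk, Rapsn and Chrnb1 were within their spread.

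Chrng (ENSMUSG00000026253, GRCm39 chromosome 1, 87132379 to 87140416, plus strand) had 14.1, 24.6, 0.763 and 4.98 normalized counts in wild type libraries 21, 22, 26 and 27 without laser. After laser the lowest of 9 wild type libraries had 38.4 normalized counts, the median was 377 and the highest was 1481. The groups did not overlap, and even library 17, the lowest with laser, was above every library without it. Fitted with limma on log2(normalized count + 1), Chrng rose with laser by 5.62 on the log2 scale (SE 0.95, 49.0-fold, adjusted p = 0.000704 over 19950 genes). It was the only gene of the 10 to pass an adjusted p of 0.05, where 5.28% of all genes tested passed (4.23% higher and 1.05% lower). Of all genes, 4.50% were higher with laser in wild type without overlap of the groups. In bulk RNA, fewer cells of a type and less RNA per cell cannot be told apart, for this gene and for those below.

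Chrne, the adult counterpart of Chrng, had 14.2, 14.1, 9.36 and 27.9 normalized counts in the 4 wild type libraries without laser. With laser it ranged from 0.83 to 16.6 (median 10.7), overlapping them, with a log2 fold change of -1.0 (SE 0.74, adjusted p = 0.462 from limma). The difference log2(Chrng + 1) minus log2(Chrne + 1) within a library was -1.02 ± 1.65 (SD, n = 4) without and 5.60 ± 1.15 (SD, n = 9) with laser. All 9 laser libraries were above all 4 without, and the change of 6.61 had p = 0.0014 (two-sided exact permutation test over 715 splits, the smallest p these allow). Chrng alone already separated the same libraries, so this p is no independent result. Per kilobase, Chrng stood at 222 ± 182 and Chrne at 5.11 ± 3.02 normalized counts per kb in wild type laser libraries (SD, n = 9).

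**Figure D2:**
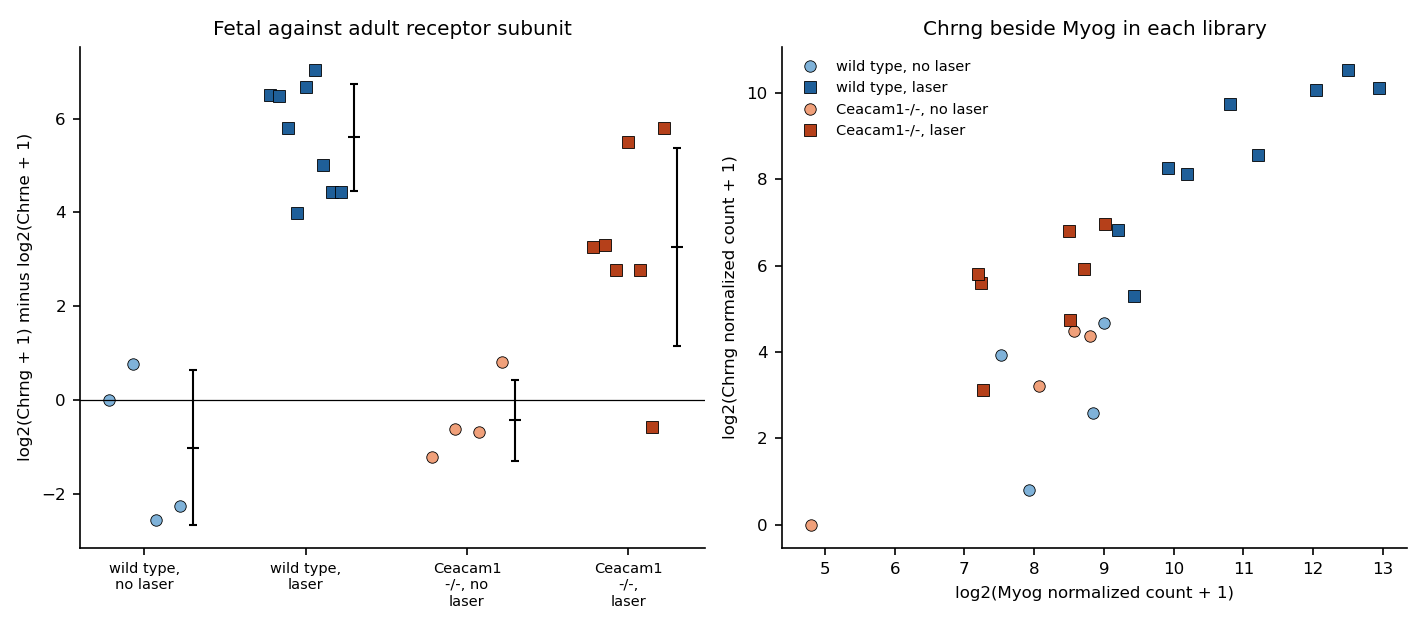
Left, the difference log2(Chrng + 1) minus log2(Chrne + 1) in each library, with mean ± SD by group. The 9 wild type laser libraries lie between 3.99 and 7.04, above all 4 without laser. Right, log2 of the normalized count plus 1 of Chrng against that of Myog, where libraries with more Myog tend to have more Chrng and the wild type laser libraries reach highest on both axes.

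Among the other receptor subunits, Chrna1, the subunit that is central to acetylcholine binding, had 563, 1446, 120 and 1238 normalized counts in wild type without laser. With laser it ranged from 311 to 3899 (median 1618), and its log2 fold change was 1.14 (SE 0.79, adjusted p = 0.432). With each library left out, that estimate spanned 0.37 to 1.57. The groups overlapped. Chrnd had 30.1, 66.3, 15.5 and 34.6 normalized counts without laser and from 2.28 to 438 (median 182) with laser. In 7 of 9 laser libraries it was above all 4 without, but libraries 17 (2.28) and 19 (20.9) were not, and the log2 fold change of 1.69 had an SE of 1.22 (adjusted p = 0.445). Chrnb1, a subunit of both receptor forms, had 672 ± 358 normalized counts without (SD, n = 4) and 572 ± 201 with laser (SD, n = 9), with a log2 fold change of -0.16 (SE 0.42, adjusted p = 0.851). Chrnd and Chrng are neighbours on chromosome 1, 4.58 kb apart and on the same strand.

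Of the agrin receptor complex, Dok7 (ENSMUSG00000044716, GRCm39 chromosome 5, 35213886 to 35246018, plus strand) had 404, 462, 366 and 385 normalized counts in wild type libraries 21, 22, 26 and 27. With laser it ranged from 139 to 378 (median 207) in wild type. In 8 of 9 laser libraries it was below all 4 without laser, and library 1 (378) was within their range. The log2 fold change was -0.91 (SE 0.32, 1.89-fold lower), with an unadjusted p of 0.00812 and an adjusted p of 0.0952 from limma, which misses the threshold. It passed when only the 13 wild type libraries were fitted (adjusted p = 0.0368), and in other alternatives given in the closing section.

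Lrp4, the agrin receptor, had 248, 369, 308 and 268 normalized counts in wild type without laser and from 158 to 269 (median 220) with laser. In 7 of 9 laser libraries Lrp4 was below all 4 without laser, and its log2 fold change of -0.50 (SE 0.21) had an adjusted p of 0.188. Musk had 134 ± 67.6 normalized counts without (SD, n = 4) and 149 ± 83.1 with laser (SD, n = 9), and the log2 fold change was 0.08 (SE 0.64, adjusted p = 0.955). Rapsn, the receptor scaffold, had 877 ± 243 without and 770 ± 252 with laser (adjusted p = 0.821), and Colq had 174 ± 105 without and 124 ± 75.6 with laser (adjusted p = 0.612). The SDs of these 3 genes exceeded the differences between their means.

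**Figure D3:**
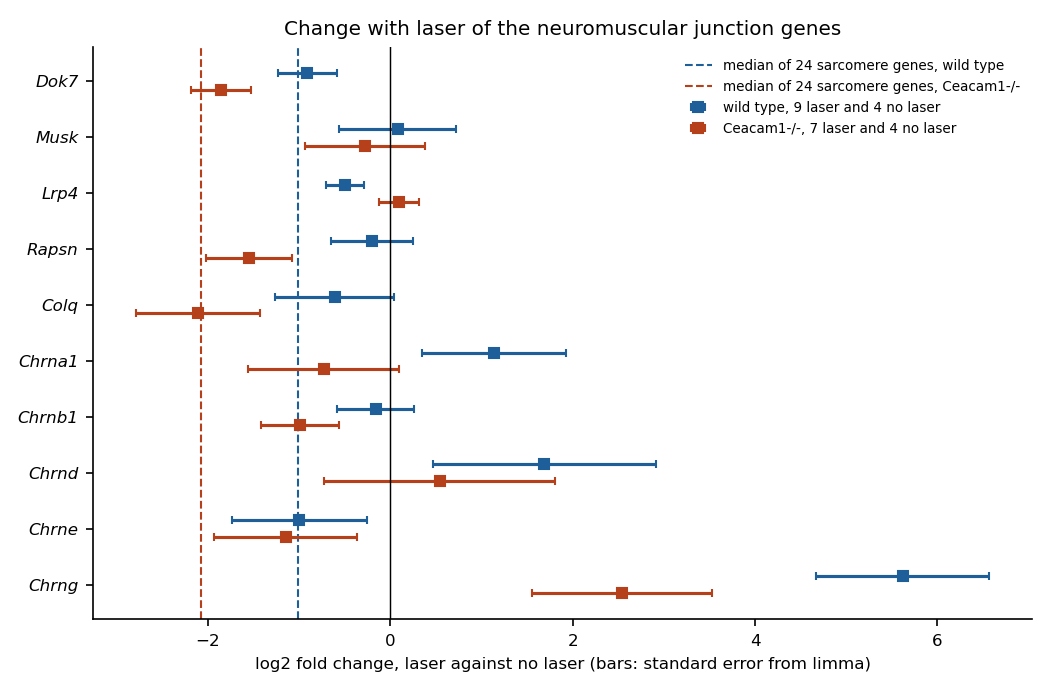
Log2 fold change with laser of each gene, with its standard error, in wild type (9 laser and 4 no-laser libraries) and in Ceacam1-/- (7 and 4). Dashed lines are the medians of 24 sarcomere genes, -1.01 in wild type and -2.08 in Ceacam1-/-. Chrng is highest in both genotypes, at 5.62 and 2.54, and the Ceacam1-/- estimates are the lower ones for 9 of the 10 genes.

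In Ceacam1-/- choroid, the contrast that chose the set, Dok7 was lower with laser and most of the other genes had lower means, while Chrng had a higher one. These values are a description. Dok7 had 310, 544, 1058 and 293 normalized counts in Ceacam1-/- libraries 23, 24, 25 and 28 without laser. With laser it ranged from 82.6 to 222 (median 129) in 7 libraries. The groups did not overlap, as held for 0.962% of all genes in that direction, and the log2 fold change was -1.86 (SE 0.33). The choice of the set fixed that Dok7 is past the adjusted threshold here, as are 3.72% of all genes tested (1.65% as lower), and nothing is read from its standing among the 10. Library 25 held the highest Dok7 and also the most sarcomere RNA. Markers of other tissues also had medians away from that of all genes (0.02) in this contrast. The median log2 fold change was -2.08 for 24 sarcomere, -1.61 for 6 retinal pigment epithelium and -0.96 for 8 Schwann cell genes. It was -0.75 for 7 smooth muscle and 2.34 for 7 photoreceptor genes. Past the adjusted threshold with limma were 2 of the sarcomere genes and 0 of the other lists. At an unadjusted p under 0.05 there were 23, 5, 4, 2 and 0 genes, in the same order, beside 3997 of all 19950. Without libraries 14, 15 and 18, which stood apart in photoreceptor RNA, the log2 fold change of Dok7 was -1.80, while that of Rapsn went to -0.80, Chrnd to 1.41 and Musk to 0.62 from the values given next, and the median of the 10 was -0.69. The part of these tissues in the values was not tested.

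Colq had 179 ± 125 normalized counts without (SD, n = 4) and 33 ± 16.8 with laser (SD, n = 7), a log2 fold change of -2.11 (SE 0.68). Rapsn had 998 ± 631 without and 344 ± 183 with laser, a log2 fold change of -1.55 (SE 0.47). With the sarcomere score as covariate these were -0.62 for Colq and -0.39 for Rapsn. Library 23 lay inside the range of the laser libraries for both genes, and the other 3 libraries without laser lay above it. Chrnb1 had a log2 fold change of -0.99 (SE 0.43) and Chrna1 of -0.73 (SE 0.83). With each library left out, these spanned -1.55 to -0.63 for Chrnb1 and -1.88 to -0.17 for Chrna1. With the sarcomere score as covariate they turned to 0.16 and 0.70, and Musk was at 0.90. Chrna1 had 36.9 normalized counts in library 23 against 500 to 1313 in libraries 24, 25 and 28. Musk (-0.28, SE 0.66), Lrp4 (0.09, SE 0.22), Chrne (-1.15, SE 0.78) and Chrnd (0.54, SE 1.27) had log2 fold changes of less than 2 SE. Chrng had 0, 19.7, 21.4 and 8.30 normalized counts without laser and from 7.70 to 124 (median 54.7) with laser, a log2 fold change of 2.54 (SE 0.99). In 6 of 7 laser libraries Chrng was above all 4 without, and library 15 was not. The difference between Chrng and Chrne on the log2 scale was -0.43 ± 0.86 (SD, n = 4) without and 3.26 ± 2.11 (SD, n = 7) with laser.

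Whether laser acted differently by genotype was not shown for any gene of the set. With limma 0 of 10 passed the interaction of laser and genotype, where 0% of 19950 genes passed, and at an unadjusted p under 0.05 there were 3 of 10 beside 6.22% of all genes. These were Chrng (interaction -3.07 on the log2 scale, SE 1.37), Rapsn (-1.35, SE 0.64) and Dok7 (-0.95, SE 0.46), each with an adjusted p of 0.640. The interaction holds the contrast that chose the set, so it is no independent test. Without libraries 14, 15 and 18 there were 0 of 10 beside 2.32% of all genes. Photoreceptor markers had a median interaction of 3.70, retinal pigment epithelium of -1.49 and sarcomere genes of -1.05, and their part was not tested.

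The genotypes were also compared directly, with the reservation that the Ceacam1-/- libraries had a part in choosing the set. Without laser, wild type and Ceacam1-/- choroid overlapped in all 10 genes (of all genes, 0.922% were higher and 0.434% lower without overlap). Dok7 averaged 405 ± 41.5 normalized counts in the former and 551 ± 357 in the latter (SD, n = 4 each), and its log2 fold change was 0.25 (SE 0.39, adjusted p = 0.999). With limma 0 of 10 genes passed and 0% of 20057 genes passed, and at an unadjusted p under 0.05 there were 0 of 10 beside 1.53% of all genes. The paper made this comparison with DESeq2 and sex as a covariate, and reports a small number of differentially expressed genes. The 0% is that of another test without sex, and does not show that no gene differed. The largest estimates were those of Chrnd (-1.12, SE 1.26) and Musk (-0.85, SE 0.70).

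With laser, 8 of the 9 genes tested had lower means in Ceacam1-/- than in wild type, and Lrp4 had a higher one. Chrne did not pass the filter on low values in that comparison. None of the 9 passed with limma, where 0.0202% of 19757 genes passed. At an unadjusted p under 0.05 there were 8 of 9 beside 22.7% of all genes. Over all libraries the largest differences were in the receptor subunits Chrng, Chrna1 and Chrnd, while the subunit Chrnb1 (-1.06) differed less than Colq (-1.70). Chrng averaged 625.2 ± 512.9 normalized counts in the wild type laser group (SD, n = 9) and 61.2 ± 42.1 in the Ceacam1-/- one (SD, n = 7), a log2 fold change of -3.06 (SE 0.72, adjusted p = 0.0992). Chrna1 had 1732 ± 1214 and 266 ± 109 (log2 fold change -2.38, SE 0.48, adjusted p = 0.0822). In both genes the groups overlapped, through wild type libraries 17 and 19 for Chrng, which had 38.4 and 113 normalized counts. The median log2 fold change of the 9 genes was -1.37, that of 24 sarcomere genes was -1.33 and that of all genes 0.01. The Ceacam1-/- laser libraries held less sarcomere RNA (0.94% against 1.94% of a library) and more photoreceptor RNA (score 13.6 ± 2.53 against 11.5 ± 1.76, mean log2 value of 7 genes). The other markers had lower means too, with a median log2 fold change of -1.48 for 6 retinal pigment epithelium genes (5 at an unadjusted p under 0.05), -0.97 for melanocyte, -0.77 for smooth muscle, -0.54 for endothelial and -0.36 for Schwann cell genes. Ceacam1-/- laser libraries 14, 15 and 18 stood apart in these markers. Their pigment epithelium scores were 11.46, 11.47 and 10.83 against 12.80 to 13.59 in the other 4 libraries of the group, and their melanocyte scores were 10.45, 11.95 and 10.38 against 13.73 to 14.50. Without these 3 libraries, a setting chosen after seeing the data, 0 of 9 genes passed with limma and 5 had an unadjusted p under 0.05, beside 8.40% of all genes, and the median log2 fold change was -0.85 for the 9 genes and -0.85 for the sarcomere genes. Chrng and Chrna1 were then at -2.59 and -2.25 (adjusted p = 0.354 and 0.294), Chrnd at -1.40 from -2.27, Rapsn at -0.61 from -1.37 and Musk at -0.31 from -1.21. Colq, at -1.55 from -1.70, then differed more than Chrnd. The part of muscle, retina or any other marked cell type in these differences was not tested.

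The junction genes were then set beside the muscle RNA of each library, measured as the mean log2(normalized count + 1) of 24 sarcomere genes (sarcomere score). The Ceacam1-/- values that chose Dok7 are part of the 24 libraries, so these correlations are a description, with no p. The closest to the score were Chrnb1 (Pearson's r = 0.87, Spearman's ρ = 0.83) and Rapsn (r = 0.86, ρ = 0.83), with Colq at r = 0.82 and ρ = 0.82. Dok7 followed at r = 0.73 and ρ = 0.77, and at r = 0.85 without libraries 14 and 23, the 2 farthest from the median score. Chrne (r = 0.54), Musk (r = 0.56, ρ = 0.42) and Chrna1 (r = 0.51) were looser, and the relation of Musk rested on those 2 libraries, without which r was 0.22. Chrnd (r = 0.22), Lrp4 (-0.14) and Chrng (-0.08) had the lowest values. Within the 9 wild type laser libraries the r of Dok7 was 0.49 (ρ = 0.43, exact permutation p = 0.185 for r), so the relation over 24 libraries was not shown within that group. That of Chrnb1 there was 0.85, but ρ was 0.48, and r was 0.25 without libraries 13 and 19. In the 7 Ceacam1-/- laser libraries r was 0.34 for Dok7 and 0.80 for Chrnb1 (ρ = 0.36 and 0.50), and without libraries 4 and 14 it was 0.06 and 0.53.

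**Figure D4:**
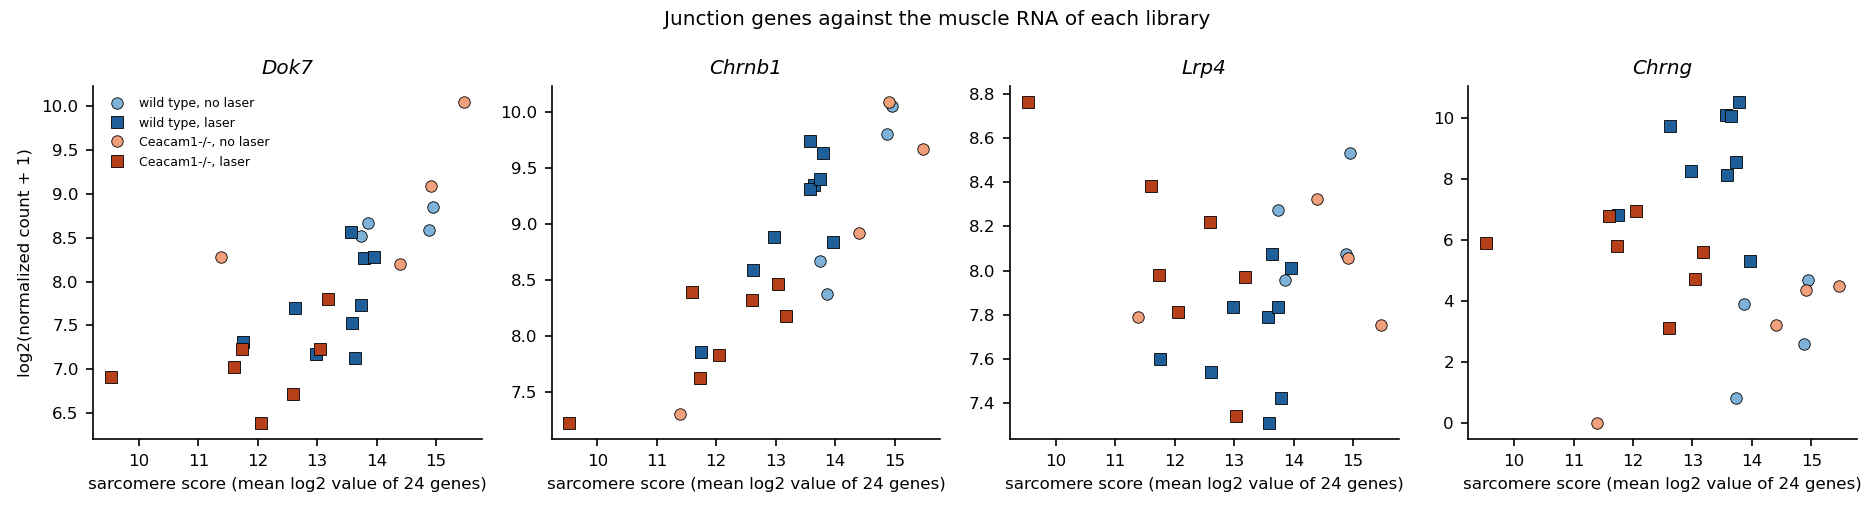
Log2 of the normalized count plus 1 of Dok7, Chrnb1, Lrp4 and Chrng against the sarcomere score of each of the 24 libraries. Chrnb1 (r = 0.87) and Dok7 (r = 0.73) go up with the score, and Lrp4 (r = -0.14) and Chrng (r = -0.08) do not.

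The difference of Dok7 with laser was also set against that muscle RNA, with values that depended on how this was done. Its log2 value minus the sarcomere score was -5.70 ± 0.57 (SD, n = 4) without and -5.55 ± 0.65 (SD, n = 9) with laser in wild type, a difference of 0.15 (two-sided exact permutation test over 715 splits, p = 0.705). With the score as a covariate in limma in place of the subtraction, the estimate for Dok7 in wild type was -0.66 on the log2 scale (adjusted p = 0.12), against -0.91 (adjusted p = 0.0952) without the covariate. In Ceacam1-/- the log2 value minus the score was -5.14 ± 1.39 (SD, n = 4) without and -4.92 ± 1.16 (SD, n = 7) with laser, given with no test. Of the sarcomere genes, 0 of 24 passed with limma in wild type with laser and 6 had an unadjusted p under 0.05, as 20.0% of all genes had, with a median log2 fold change of -1.01 where that of all genes was -0.10. Atp2a1 (-1.21, SE 0.66), the actin gene Acta1 (-0.58, SE 0.67) and the light chain gene Myl1 (-1.13, SE 0.70) were the most abundant. In Ceacam1-/- the median of the 24 was -2.08, and the calcium release channel gene Ryr1 and the glycogen phosphorylase gene Pygm were past the threshold, in the contrast that chose the set. Of 6 slow muscle genes 0 passed in wild type (3 at an unadjusted p under 0.05, beside the same 20.0% of all genes), with a median of -2.38. Tnnt1 was the most abundant of them (-1.74, SE 0.75), and Tnni1 (-0.95, SE 0.77) and Tnnc1 (-1.25, SE 0.94) followed.

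Of a list of 13 genes of the myogenic program and of denervated muscle, some rose beside Chrng and others did not. In wild type choroid with laser, 3 of 13 rose and 0 fell, where 4.23% of all genes were called higher and 1.05% lower. Their median log2 fold change was 0.22, and that of all genes tested was -0.10. The estimates of 9 genes were above 0 and those of 4 below. The myogenic factor gene Myf6 had from 1299 to 4047 normalized counts without and from 341 to 1637 with laser, with overlap of the groups. Myog, the transcription factor that drives muscle differentiation and receptor genes after denervation, had 183, 510, 242 and 459 normalized counts without laser and from 589 to 7851 (median 1800) with laser. The groups did not overlap, and Myog rose by 2.59 on the log2 scale (SE 0.69, adjusted p = 0.0282 from limma). Without library 1, 12, 21, 26 or 27 the adjusted p of Myog was between 0.0502 and 0.129. Ankrd1, a muscle ankyrin repeat protein induced by stretch and injury, went from 103 ± 24.8 (SD, n = 4) to 1875 ± 1898 normalized counts (SD, n = 9) and rose by 3.49 (SE 0.71, adjusted p = 0.00414). Runx1, a transcription factor induced in denervated muscle and also present in blood cells, went from 443 ± 167 to 1670 ± 565 and rose by 1.92 (SE 0.38, adjusted p = 0.00321). Neither of these 2 overlapped between the groups. Of the most abundant genes of the list, the embryonic myosin gene Myh3 (-1.55, SE 0.91), the adhesion gene Ncam1 (0.22, SE 0.33) and the cell cycle inhibitor gene Cdkn1a (0.41, SE 0.43) did not pass. In Ceacam1-/- the log2 fold changes of Myog, Ankrd1 and Runx1 were 0.50 (SE 0.72), 0.02 (SE 0.74) and 0.81 (SE 0.40). The interaction was -3.47 for Ankrd1 (SE 1.03), -2.09 for Myog (SE 1.00) and -1.11 for Runx1 (SE 0.55), each with an adjusted p of 0.640. Between the genotypes with laser, Myog did not overlap (log2 fold change -2.85, SE 0.53, adjusted p = 0.0822), as held for 0.0709% of all genes in that direction.

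Myog was chosen for a closer look after its values were seen. Over the 24 libraries Chrna1 (r = 0.86, ρ = 0.79) and Chrng (r = 0.86, ρ = 0.79) went with Myog, as did Chrnd (r = 0.82, ρ = 0.78), given as a description with no p. Without libraries 1 and 23, the farthest from the median of Myog, r was 0.80, 0.81 and 0.72. Within the 9 wild type laser libraries r was 0.93 for Chrna1, 0.87 for Chrng and 0.82 for Chrnd, with ρ of 0.95, 0.93 and 0.97. Without libraries 1 and 12 their r was 0.93, 0.84 and 0.78. Chrnb1 (r = 0.80, ρ = 0.88), Rapsn (r = 0.74, ρ = 0.67) and Chrne (r = 0.67, ρ = 0.72) followed there. Within the 7 Ceacam1-/- laser libraries r was 0.69 for Chrna1, 0.55 for Chrng and 0.57 for Chrnd, and without libraries 4 and 18 it was 0.59, 0.88 and 0.94. Dok7 had an r of -0.02 with Myog over the 24 libraries and of 0.44 within wild type laser libraries, or -0.29 without libraries 1 and 12. Within Ceacam1-/- laser libraries its r was -0.55 (ρ = -0.71), or -0.07 without libraries 4 and 18.

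**Figure D5:**
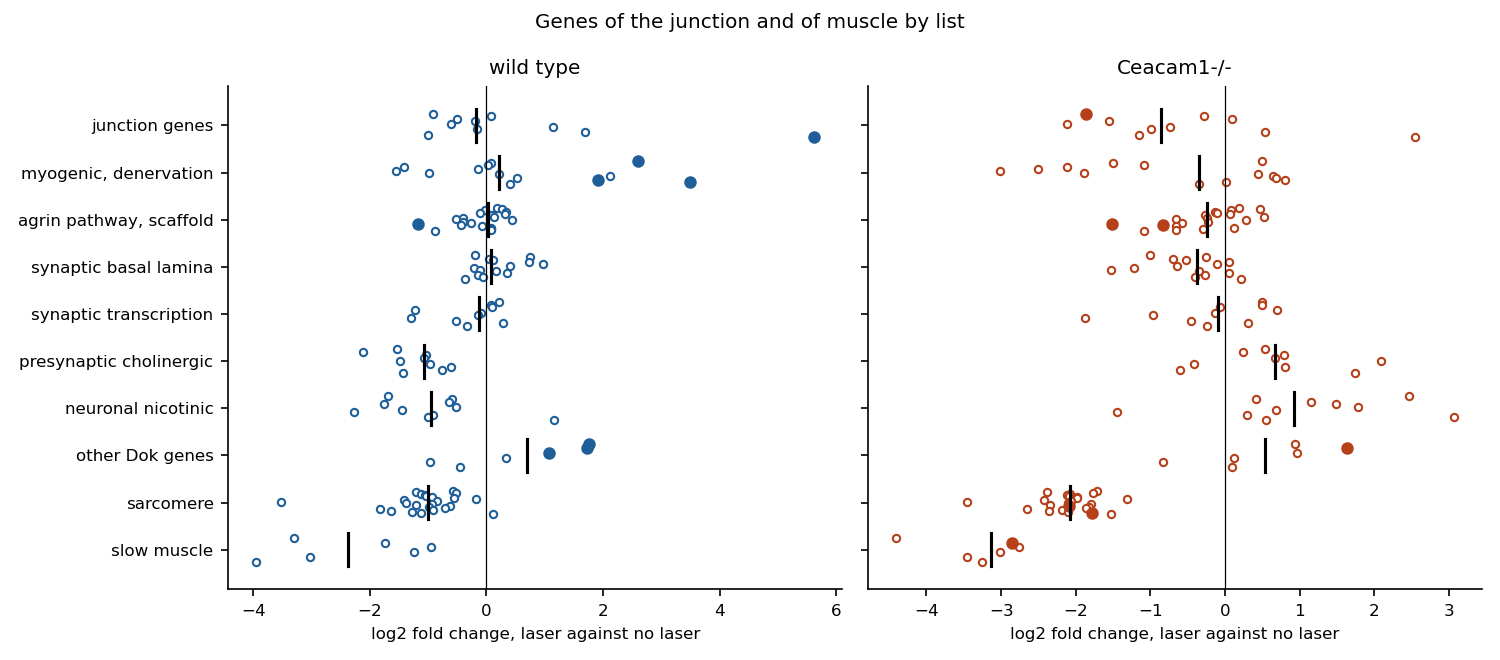
Log2 fold change with laser of each gene of 10 lists, in wild type (left) and Ceacam1-/- (right). Each point is a gene, filled where its adjusted p was under 0.05, and the vertical bar is the median of the list. In wild type the filled points are Chrng at 5.62, Ankrd1, Myog and Runx1 to the right, Dtna to the left, and 3 other Dok genes to the right. The right panel holds the contrast that chose the junction genes.

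The other parts of the synapse are given by list. Of 20 further genes of the agrin pathway and the postsynaptic scaffold, 1 fell and 0 rose with laser in wild type, where 1.05% of all genes were called lower, and their median log2 fold change was 0.02. The gene that fell was Dtna, encoding alpha-dystrobrevin, a member of the dystrophin complex that stabilises receptor clusters. It had 2216, 3498, 1664 and 3867 normalized counts without laser and from 770 to 1649 (median 1183) with laser, without overlap (1.75% of all genes were lower in this way), and fell by 1.18 on the log2 scale (SE 0.27, adjusted p = 0.00932 from limma). Without library 22 its adjusted p was 0.051 and without library 27 it was 0.069. Agrn, which encodes agrin, had 1129 ± 352 normalized counts without (SD, n = 4) and 1266 ± 290 with laser (SD, n = 9). The most abundant genes of this list, Plec (0.07, SE 0.30), Dag1 (0.07, SE 0.30) and Cttn (0.44, SE 0.20), had small log2 fold changes that did not pass.

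In the synaptic basal lamina, 0 of 14 genes passed with limma in wild type (2 at an unadjusted p under 0.05, as 20.0% of all genes had, median log2 fold change 0.08). Its most abundant genes were Lamb2 (0.11, SE 0.38), which encodes the synaptic laminin chain, Col4a3 (-0.21, SE 0.37) and Hspg2 (0.40, SE 0.44). Of 10 genes that act on transcription at synaptic nuclei 0 passed (2 unadjusted, median -0.12), among them Gabpa (0.22, SE 0.23), an ETS factor, Hdac4 (-0.53, SE 0.18) and Prkar1a (0.29, SE 0.15). Of 5 glycosylation genes whose loss causes congenital myasthenia 0 passed (0 unadjusted, median 0.09), with Gfpt1 at 0.09 (SE 0.23), Alg2 at 0.07 (SE 0.26) and Alg14 at -0.04 (SE 0.25).

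Of the nerve side, 9 of 10 presynaptic cholinergic genes could be tested and 0 passed in wild type, where 5.28% of all genes did (3 at an unadjusted p under 0.05, as 20.0% of all genes had), with a median log2 fold change of -1.07. Mnx1, a factor of motor neurons, was listed at 0 in all 24 libraries, and Chat, the enzyme that makes acetylcholine, had 79.9 ± 36.5 normalized counts without (SD, n = 4) and 29.3 ± 16.1 with laser (SD, n = 9). The vesicle fusion gene Snap25 (-1.48, SE 1.24) was the most abundant, followed by Vamp1 (-0.97, SE 0.37) and Unc13a (-0.61, SE 0.71). Of 10 neuronal nicotinic subunit genes tested 0 passed (2 at an unadjusted p under 0.05, the share of all genes, median -0.96), with Chrna6 at -0.53 (SE 1.63), Chrnb3 at -1.0 (SE 1.74) and Chrnb4 at 1.15 (SE 0.53). The medians of the photoreceptor markers had the same signs, at -1.52 in wild type and 2.34 in Ceacam1-/-. The presynaptic median was 0.67 and the neuronal nicotinic median 0.92 in Ceacam1-/-. Of the 7 photoreceptor markers, 0 passed with limma and 0 had an unadjusted p under 0.05 in either genotype. The part of retinal RNA in these values was not tested.

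Of the 6 other genes of the Dok family, which are adaptors of tyrosine kinases, 3 rose with laser in wild type, where 4.23% of all genes were called higher. Dok1 rose by 1.75 (SE 0.39, adjusted p = 0.00762), Dok2 by 1.73 (SE 0.40, adjusted p = 0.0115) and Dok3 by 1.07 on the log2 scale (SE 0.31, adjusted p = 0.0418). Without library 21 the adjusted p was 0.0573 for Dok1 and 0.0851 for Dok2, and that of Dok3 was 0.0574 to 0.163 without library 1, 2, 3, 12, 17, 22, 26 or 27. These 3 are best known from blood cells. Dok1 had 189 ± 67.7 normalized counts without (SD, n = 4) and 631 ± 177 with laser (SD, n = 9), and Dok4 was at 0.33 (SE 0.28). Of the other cell types, Schwann cell (median -0.12), smooth muscle (-0.21), endothelial (0.50), retinal pigment epithelium (-0.07) and melanocyte markers (0.54) had 0 genes past the threshold with limma in wild type, and at an unadjusted p under 0.05 only the endothelial list had any, 2 of 6 beside 20.0% of all genes.

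Among the 10 of 19949 genes whose pattern over the 24 libraries was most like that of Dok7, by Pearson's r, were Map1lc3a (0.868), Smarcd3 (0.864), Suclg1 (0.860), Kcnj12 (0.860), Apoo (0.859), Mief2 (0.856), Idh3g (0.854), Ankrd9 (0.854) and the long noncoding RNA 2310069B03Rik (0.850). These values include the libraries that chose Dok7, and share its library depth and muscle RNA. Their choice favours genes that move with Dok7, so their log2 fold changes with laser in wild type, such as -1.36 (SE 0.34) for Kcnj12, an inward rectifier potassium channel gene, and -2.87 (SE 0.84) for 2310069B03Rik, are a description. Among the junction genes the one nearest to Dok7 was Colq (r = 0.64), at rank 880, followed by Rapsn and Chrnb1 (r = 0.60 each), and Musk, its partner kinase, had an r of 0.27. The closest pairs within the set were Colq with Chrnb1 (r = 0.90), Rapsn with Chrnb1 (0.82), Chrna1 with Chrnd (0.81) and Chrnd with Chrng (0.79). Lrp4 had its highest r within the set with Chrne, at 0.09.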

How the data were processed

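RNA of mouse choroid was made into SMART-Seq mRNA LP libraries and sequenced on an Illumina NextSeq. Per the submitters' notes and methods, reads were checked with FastQC 0.11.5, pseudo-aligned to GRCm39 with Salmon 1.10.3 and imported with tximport into DESeq2 1.44.0, and 1 outlier was removed. The authors deposited signal values, namely normalized counts of 56065 genes in 24 libraries, divided by factors for library size and average transcript length. Library totals of these values ran from 23704346 to 35094410. They are not whole reads (31.6% to 73.9% of low values lay within 5% of a whole multiple), so count tests were not run. The depth in reads, known only roughly, and the number of libraries limit the precision.

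Groups were taken from the labels. The labels do not give sex, so it was not a covariate. limma 3.58.1 (R 4.3.3) with a variance trend was fitted to log2(value + 1) of genes with a mean of at least 10, with Benjamini-Hochberg adjustment and a threshold of 0.05: laser and its interaction with genotype in all 24 libraries (19950 genes), genotype in 8 libraries without and 16 with laser (20057 and 19757 genes). The fits were tested on simulated data. Single values were compared by exact permutation. Fold changes are on the log2(value + 1) scale and understate changes of low genes. Tables were made in Python 3.11.15 (numpy 2.4.6, pandas 2.3.3, scipy 1.17.1), and figures in matplotlib 3.10.9. Positions and canonical transcript lengths are from GENCODE M39 on GRCm39. Promoters are from RefSeq on GRCm38.p6.

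The members and lists were chosen with earlier results of these data known. The text names the 10 members, in each list the genes called in wild type with laser and the 3 of highest mean, the markers, and the 10 genes most correlated with Dok7, of which 1 is not reported here. Agrn, Chat, Mnx1, Ryr1, Pygm and Myf6 were chosen after their values were seen. Alternatives were other pseudocounts, filters, scalings and variance models, array weights, covariates (the sum of Kdm5d, Uty, Ddx3y and Eif2s3y on the Y chromosome, or sarcomere score), other sets of libraries, and leaving out each library.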

Additional observations from a re-analysis of the deposited data

Results flagged for a closer look

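In 52 sets of 4 to 10 libraries, 3 held a library farther from the rest than Dixon's 95% critical value allows, where chance gives about 1 in 20. All 3 were in Ceacam1-/- with laser. Musk was lowest in library 14, at 7.86 normalized counts, against 39 to 123 in the other 6. Chrnd was lowest in library 15, where it was listed at 0, against 16.2 to 57.8 in the others. Dok7 minus the sarcomere score was highest in library 14, at -2.61, in the library with the least sarcomere RNA (0.136% of its values). Without library 14, the log2 fold change of Musk with laser in Ceacam1-/- was 0.16 in place of -0.28.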

How the results depend on the processing

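Of 1562 repeats for single genes under an alternative, 1452 kept their direction and side of the threshold. Of 179 repeats of the comparisons, 163 were unchanged. For the exact permutation tests this means direction and side of the threshold, and for counts of genes an equal or similar count. The 38 counts for the interaction and the 21 for genotype without laser stayed at 0 of the set. In the main fits of both, 0 of all genes passed. Chrng stayed past the threshold in wild type with laser in all 27 alternatives (log2 fold change 4.42 to 6.18, adjusted p from 5.78e-07 to 0.00546 with limma), and the change of Chrng minus Chrne stayed between 4.92 and 7.21. Ankrd1 and Runx1 stayed past it too. Dok7 in wild type went from an adjusted p of 0.00295 to 0.213 over its alternatives, and its log2 fold change from -1.13 to -0.66, the last with the sarcomere score as covariate. It passed with array weights, with the Y-linked covariate (adjusted p = 0.0302), with only the groups compared (0.0368) and, in alternatives chosen after seeing the data, with the photoreceptor score as covariate (0.0163) and without libraries 14, 23 and 25 (0.0496). The causes were not tested. Myog missed the threshold with the Y-linked covariate (adjusted p = 0.0528) and without each of 5 libraries, Dok3 missed it in 12 of 27 alternatives, Dtna in 2, and Dok1 and Dok2 in 1 each.

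The members called in wild type with laser were 3 with array weights and 2 with the Y-linked covariate, with the photoreceptor covariate, with only the groups compared and without libraries 14, 23 and 25, settings that called 793, 1294, 2274 and 1646 of all genes in place of 1053. They were always 1 with each library left out, while the count over all genes ran from 479 (without library 21, and 554 without library 27) to 1162. In Ceacam1-/- with laser, the contrast that chose the set, the counts are a description and no sign of stability. They were 5 with array weights and 0 with only the groups compared, where 38 of 20299 genes were called in place of 742, and from 1 to 4 with each library left out (2 without library 4, where 783 of all genes were called, and 4 without library 23, where 2488 of 19888 were called). Over all genes 148 were called without library 25, 255 without library 24, 2005 without libraries 14, 15 and 18 and 437 with no filter on low values, and without library 5 the share called was 2.34% of all genes. For genotype with laser they were 3 with array weights and from 0 to 2 with each library left out (2 without library 17 and 2 without library 19, where 25 and 61 of all genes were called in place of 4). Over all genes, array weights called 6505 in wild type and 3551 in Ceacam1-/- with laser and 297 between the genotypes with laser, in place of 1053, 742 and 4, and the sarcomere covariate called 3593 and 406 with laser. Dok7 minus the sarcomere score changed by -0.0003 in wild type with 5 muscle genes as the score, and by -0.05 to 0.32 with each library left out, the lowest without library 27.

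Signs of uncalled estimates turned as follows (log2). With the sarcomere score as covariate, Rapsn, Colq and Chrnb1 were at 0.40, 0.15 and 0.43 in wild type, Musk, Lrp4, Chrna1 and Chrnb1 at 0.90, -0.05, 0.70 and 0.16 in Ceacam1-/-, Musk and Chrne at 0.22 and 0.26 in the interaction, and Rapsn and Colq at 0.15 and 0.08 for genotype without laser. With the photoreceptor score, Musk was at -0.15 in wild type, 0.07 in Ceacam1-/- and 0.22 in the interaction, Chrne at 0.19 in the interaction, and Chrng at -0.33 for genotype without laser. With the Y-linked covariate Musk was at -0.01 in wild type. With array weights Lrp4 was at -0.10 in Ceacam1-/-, and Musk, Rapsn and Chrnb1 at 0.05, 0.13 and 0.002 for genotype without laser. Without libraries 14, 15 and 18, Musk was at 0.62 in Ceacam1-/- and 0.54 in the interaction, and Lrp4 at -0.10 in Ceacam1-/-. Without libraries 14, 23 and 25, Lrp4 and Chrnd were at -0.24 and -0.61 in Ceacam1-/-. Without libraries 23 and 25, Dok7, Rapsn, Colq, Chrna1 and Chrnb1 were at -0.01, 0.10, 0.30, 0.46 and 0.28 for genotype without laser. Upper-quartile scaling put Rapsn at 0.03 and a pseudocount of 0.5 put Chrng at -0.10 there.

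With each library left out, the estimates whose sign turned spanned, in wild type with laser, -0.26 to 0.37 for Musk and -0.44 to 0.12 for Chrnb1. In Ceacam1-/- with laser they spanned -0.68 to 0.39 for Musk, -0.03 to 0.21 for Lrp4 and -0.77 to 1.29 for Chrnd. In the interaction they spanned -0.76 to 0.31 for Musk and -0.90 to 0.23 for Chrne. For genotype without laser they spanned -0.13 to 0.48 for Dok7, -0.39 to 0.44 for Rapsn, -0.62 to 0.54 for Colq, -1.28 to 0.63 for Chrna1, -0.59 to 0.33 for Chrnb1, -1.82 to 0.19 for Chrnd, -1.14 to 0.17 for Chrne and -0.71 to 1.03 for Chrng. No paired analysis was possible because the groups share no replicate numbers. Low values of Chrne, Chrnd and Chrng rest on few reads, and the depth in reads is known only roughly.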

Other observations

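Near-neighbouring and overlapping genes share ground with the junction genes, and the sources do not say whether counting used the strand. Gm13778, a long noncoding RNA on the opposite strand to Rapsn, had a mean of 15.9 normalized counts over the 24 libraries, and Rapsn had 702. The protein-coding gene 4930544D05Rik on the opposite strand to Chrne had a mean of 1.09, where Chrne had 10.6. Gm49387, on the same strand as Colq and overlapping it, had 2.97, where Colq had 115. Rapsn and Lrp4 lie 0.412 Mb apart on chromosome 2, and Chrnb1 and Chrne 0.819 Mb apart on chromosome 11.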
